A study of Mus musculus with 19 samples.

Results

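The metal ion transporter genes were taken as every gene whose symbol belongs to the solute carrier families Slc11, Slc30, Slc31, Slc39, Slc40 or Slc41, which gave 32 of the 23337 gene symbols in the RefSeq count and RPKM tables. These had 43 of the 30455 transcript rows, and the row of highest mean count stood for a gene. RPKM is reads per kilobase of transcript, scaled to the size of the library. The study asked how closely cystic embryoid bodies (EBs), hollow spheres grown from mouse ES cells, resemble the endoderm of the visceral yolk sac (ysE). Total RNA depleted of ribosomal RNA was sequenced in 11 libraries. Of these, 1 was E12.5 ysE, 2 were E9.25 ysE (replicates A and B), 2 were the mesodermal layer of the E9.25 visceral yolk sac (A and B) and 2 were E12.5 fetal liver (A and B), all from FVB mice with whole litters pooled into each sample. The other 4 were cystic EBs, taken at day 10 or day 15 and grown from 2 C57Bl/6x129 ES clones, A9 (replicate A) and a Bl6/129 line, called JN here (replicate B). The labels name no transgene, deletion or treatment in any of these groups. The mesodermal layer was peeled from the ysE with its vessels and basement membrane attached, and each EB line is 1 clone. The E12.5 ysE library was not strand-specific. The liver and A9 libraries were made with ScriptSeq, and the E9.25 and JN libraries with a dUTP protocol. The study lists A9 as XY and JN as XX, so that clone, sex and protocol cannot be told apart in EBs. Methylation was measured in other samples, of CAST and FVB crosses, and H3K4me3 in FVB yolk sac.

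Cells take metal ions up and release them through dedicated carriers, because zinc, iron, copper, manganese and magnesium are needed as cofactors and are toxic in excess. Slc39 proteins (ZIP) move zinc, and some of them manganese or iron, into the cytosol from outside or from organelles, and Slc30 proteins (ZnT) move zinc, or for Slc30a10 manganese, out of the cytosol into vesicles or out of the cell. Slc11 proteins import ferrous iron and other divalent metals with protons, Slc40a1 (ferroportin) exports iron, Slc31 proteins handle copper and Slc41 proteins magnesium. In rodents the ysE absorbs maternal nutrients across its outer brush border and passes them to the vessels of the mesodermal layer, and zinc import through Slc39a4 is needed in the early embryo and its yolk sac.

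Counts summed over transcripts were 40453779 in the E12.5 ysE library and 47818368 to 169981821 in the other 10. The 32 genes took 20.2 counts per 10000 in ysE at E12.5, 21.5 to 21.6 in ysE at E9.25, 14.2 to 15.2 in the mesoderm, 10.3 to 10.6 in the liver and 9.62 to 12.1 in EBs. The labels were checked with marker genes, as RPKM summed over a list. The 7 markers of visceral endoderm, among them Afp and Ttr, summed to 39469 in ysE at E12.5, 9647 to 10566 in ysE at E9.25, 1058 to 1891 in the mesoderm, 1510 to 2714 in the liver and 143 to 1252 in EBs. Afp made up most of the sum in liver, and the means of the other 6 were higher in EBs than in liver (Amn 5.67 against 0.074, Cubn 19.5 against 0.492). The 4 endothelial markers summed to 135 to 143 in the mesoderm, 33.4 to 34.3 in the liver, 7.62 to 42.0 in EBs and 0.193 to 6.98 in ysE. The 5 erythroid markers summed to 20415 to 25342 in the mesoderm and 525 to 607 in ysE at E9.25. The EBs also held markers of pluripotent cells (64.3 to 137, against 5.53 or less elsewhere) and of cardiomyocytes (3.78 to 70.8). In such bulk samples, fewer cells of a type and less RNA per cell cannot be told apart.

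Upstream sequence was read for the 26 of 32 genes that matched the RefSeq promoter table (GRCm38.p6, the same build as mm10). Slc11a2, Slc30a8, Slc39a4, Slc39a6, Slc39a14 and Slc40a1 had no entry. The zinc-sensing factor MTF1 binds metal response elements, whose core was searched as TGCACNC or TGCGCNC on both strands within 250 bases before to 50 after the start. A start, here and below, is an entry of the promoter table, and the outermost is the first such entry of a gene. For some genes it lies inside the annotated gene span. Slc39a8 starts at 135825279 in a span from 135816882, and Slc30a2 at 134343466 in a span from 134343046. The stretches shown before these starts thus lie within the genes. The core was present at the outermost start of 14 of the 26 genes (53.8%) and of 25.6% of 27026 genes. A match of these letters is a description and not a bound site. The 250 bases upstream of 4 members are shown because the results below turn on them: Slc39a5, the member with the highest mean RPKM in ysE; Slc39a8, one of the 5 members with methylation values at the start in all 6 libraries; Slc30a1, the exporter known as an MTF1 target; and Slc30a10, the exporter high in liver and near 0 in E12.5 ysE. They lie at chr10:128401225-128401474 (minus strand), chr3:135825029-135825278 (plus strand), chr1:191906531-191906780 (plus strand) and chr1:185454598-185454847 (plus strand), and capitals mark the core.
Slc39a5 upstream: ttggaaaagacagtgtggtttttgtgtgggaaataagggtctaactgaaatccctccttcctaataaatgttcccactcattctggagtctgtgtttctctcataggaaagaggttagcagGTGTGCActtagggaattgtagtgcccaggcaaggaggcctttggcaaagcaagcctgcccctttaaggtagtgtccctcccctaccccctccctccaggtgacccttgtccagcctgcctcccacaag
Slc39a8 upstream: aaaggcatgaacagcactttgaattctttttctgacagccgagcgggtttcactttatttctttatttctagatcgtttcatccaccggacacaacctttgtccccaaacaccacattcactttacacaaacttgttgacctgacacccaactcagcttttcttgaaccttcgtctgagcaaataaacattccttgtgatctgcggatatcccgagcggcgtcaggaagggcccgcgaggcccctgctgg
Slc30a1 upstream: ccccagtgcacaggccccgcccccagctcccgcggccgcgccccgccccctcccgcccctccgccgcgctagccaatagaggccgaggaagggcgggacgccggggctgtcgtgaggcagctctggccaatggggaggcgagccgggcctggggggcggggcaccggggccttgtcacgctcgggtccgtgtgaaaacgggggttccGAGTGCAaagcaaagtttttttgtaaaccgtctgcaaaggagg
Slc30a10 upstream: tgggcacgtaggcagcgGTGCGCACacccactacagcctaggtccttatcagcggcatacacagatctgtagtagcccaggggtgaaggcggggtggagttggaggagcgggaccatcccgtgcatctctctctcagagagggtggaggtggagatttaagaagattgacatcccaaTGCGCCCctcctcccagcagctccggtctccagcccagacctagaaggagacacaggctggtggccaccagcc
Slc30a10 held 3 cores, 2 of them overlapping in the first block of capitals, Slc39a5 held 1 and Slc39a8 held none at this start. Slc30a1 held 1 here and another 30 bases after its start. Slc30a4 and Slc30a2, vesicular zinc transporters, held 3 and 2 cores, and Mt1, the metallothionein gene used as a reference for zinc response, held 3. Stretches of 29 bases around them are given with capitals again marking the core.
Slc30a4 site 1: ccgggggctcaGAGCGCAcaagacctcag
Slc30a4 site 2: tcgcgcctcgcGGGCGCAcgcgccgcctc
Slc30a4 site 3: acggggcgggcGGGTGCAgtggctggggc
Slc30a2 site 1: gccatcgtcccGCGCGCAacttcgaGGGC
Slc30a2 site 2: CGCAacttcgaGGGCGCAccgagagaggc
Mt1 site 1: cggtcccgctgTGCACACtggcgctccag
Mt1 site 2: ccagggagctcTGCACTCcgcccgaaaag
Mt1 site 3: cgcccgaaaagTGCGCTCggctctgccaa
They lie on chromosome 2 (minus strand), on chromosome 4 and on chromosome 8, at 228, 92 and 6 bases before the start of Slc30a4, 214 and 200 bases before that of Slc30a2, and 23 bases before and 2 and 20 bases after that of Mt1.

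**Figure D1:**
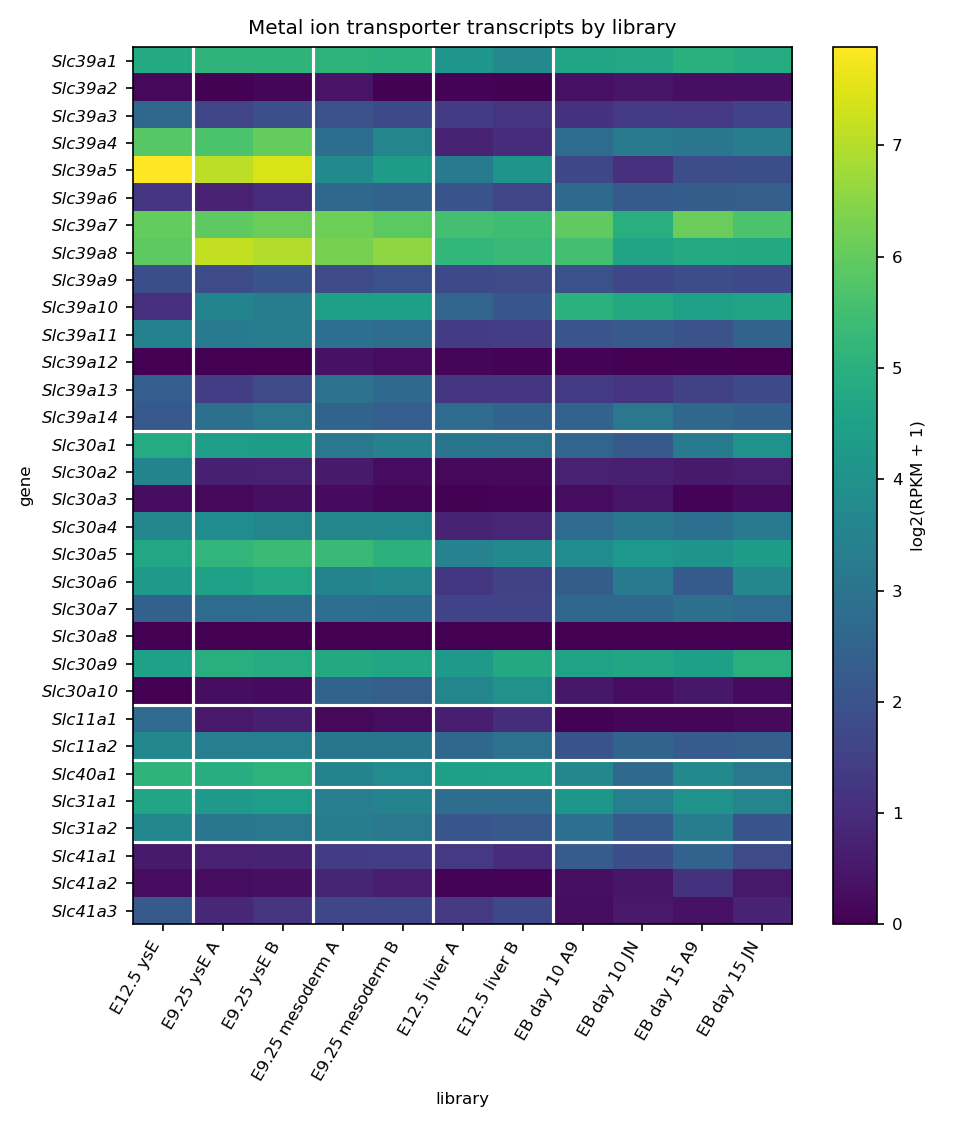
Level of the 32 metal ion transporter transcripts (rows, grouped by family) in the 11 libraries (columns), as log2(RPKM + 1) on the colour scale. Slc39a5 is brighter in the 3 ysE libraries than in the other 8, while rows such as Slc39a7 and Slc30a9 stay at a similar colour in all 11.

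The Slc39 importers were led by Slc39a5, Slc39a8, Slc39a7 and Slc39a4 in the ysE. Slc39a5 (chr10:128395927-128401276), a zinc importer of the basolateral surface of polarised epithelia, had an RPKM of 235 in ysE at E12.5, 137 and 171 in ysE at E9.25, 12.3 and 18.9 in the mesoderm, 8.33 and 15.9 in the liver, and 2.296, 1.15, 2.61 and 2.74 in EBs (A9 then JN at day 10, A9 then JN at day 15, the order kept below). All 3 ysE libraries lay above the other 8, and all 4 EB libraries lay below every tissue. Slc39a4 (chr15:76612383-76618506), the importer whose loss in humans causes the zinc deficiency acrodermatitis enteropathica, stood at 56.5 in ysE at E12.5, 48.9 and 64.6 in ysE at E9.25, 6.25 and 10.9 in the mesoderm, 0.678 and 1.06 in the liver, and 5.86, 8.34, 7.61 and 9.20 in EBs. Its ysE libraries were again above the other 8, and the ranges of mesoderm and EBs overlapped.

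Slc39a8 (chr3:135816882-135888572), which carries zinc and manganese, reached 142 and 124 in ysE at E9.25 and 76.8 and 94.2 in the mesoderm, against 60.1 in ysE at E12.5, 36.6 and 38.6 in the liver, and 44.9, 23.1, 27.2 and 26.8 in EBs. Its highest values were those of both E9.25 layers. Slc39a10 (chr1:46807544-46925776), a plasma membrane zinc importer, ran the other way, with 31.9, 26.5, 21.8 and 23.5 in EBs, 21.2 and 20.7 in the mesoderm, 10.7 and 8.96 in ysE at E9.25, 4.94 and 3.32 in the liver and 1.08 in E12.5 ysE. All 4 EB libraries were above every tissue library. Slc39a6, its close relative, stood at 5.57, 3.67, 4.06 and 4.26 in EBs and 5.38 and 4.65 in the mesoderm, and at 0.660, 1.013 and 1.37 in the 3 ysE libraries, with liver between at 3.12 and 2.12. Slc39a12 was near 0 throughout (0.316 RPKM or less) and had no count in E12.5 ysE. With a floor of 3 counts per library for that zero, its share of counts was at least 9.89-fold higher in mesoderm and at least 4.11-fold higher in liver.

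The other Slc39 genes stood below 70 RPKM in every library. Slc39a7, which releases zinc from the endoplasmic reticulum, was found at 42.6 to 69.2 in the tissues and 29.7 to 66.6 in EBs, and Slc39a1 at 12.05 to 34.0 over the 11 libraries. Slc39a14, an importer of zinc, manganese and iron not bound to transferrin, stayed within 3.50 to 7.76, and Slc39a9 within 2.18 to 3.15. Slc39a13 was highest in mesoderm (6.81 and 5.41), Slc39a3 in E12.5 ysE (5.19) and Slc39a11 in ysE (8.41 to 10.1), while Slc39a2 did not pass 0.354 in any library.

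**Figure D2:**
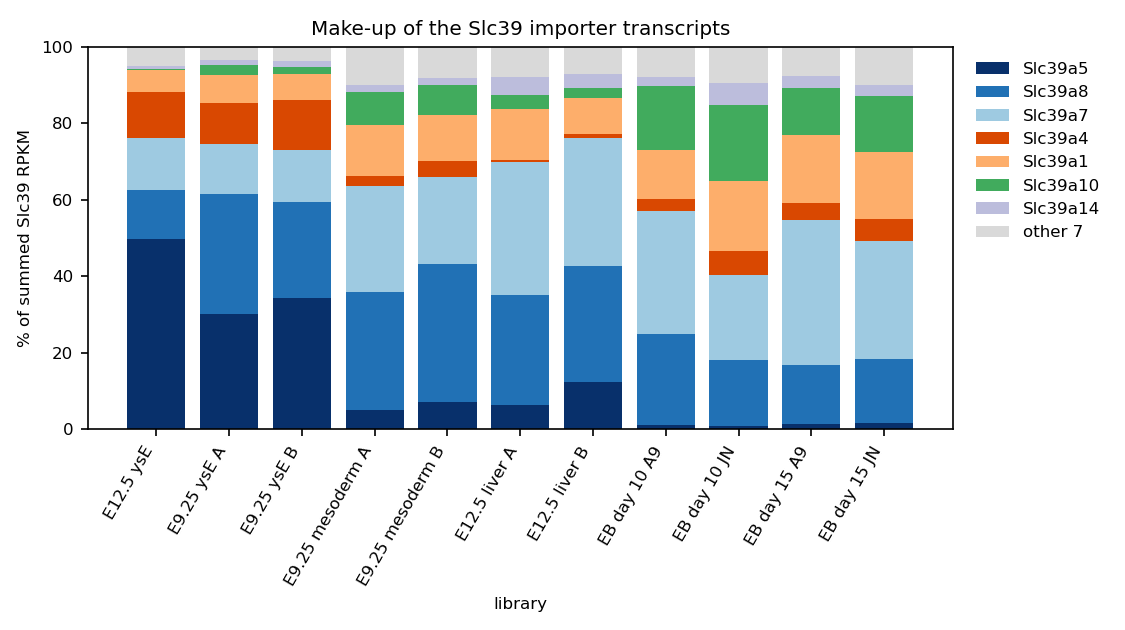
Share of the summed Slc39 RPKM (bars, in %) held by 7 of the 14 genes and by the other 7 together in each of the 11 libraries. Slc39a5 takes 30.2% to 49.9% of the ysE bars and 0.859% to 1.70% of the EB bars, where Slc39a10 takes 12.4% to 19.8%.

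Summed over the family, Slc39 RPKM was 472 in ysE at E12.5, 454 and 496 in ysE at E9.25, 248 and 261 in the mesoderm, 127 and 128 in the liver and 134 to 189 in EBs. Slc39a5 alone made up 49.9% of that sum in ysE at E12.5, 30.2% and 34.4% in ysE at E9.25, 4.94% and 7.26% in the mesoderm, 6.49% and 12.51% in the liver, and 0.859% to 1.70% in EBs. By mean RPKM Slc39a5 was the highest of the 32 members in ysE of both stages, although Slc39a8 (142) stood just above it (137) in E9.25 ysE A. Slc39a8 had the highest mean in the mesoderm, and Slc39a7 in the liver and EBs.

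Among the Slc30 genes, Slc30a10 (chr1:185454848-185468762), a manganese exporter of liver and gut, had an RPKM of 11.3 and 14.8 in the liver, 4.67 and 4.28 in the mesoderm, 0.224 and 0.185 in ysE at E9.25, 0.012 in E12.5 ysE and 0.431, 0.198, 0.437 and 0.180 in EBs. The E12.5 ysE value rested on 3 counts. The share of counts in liver was 1378-fold that in E12.5 ysE with a 95% counting interval of 472 to 6685 (exact binomial). Slc30a2 (chr4:134343046-134354484), a vesicular transporter that loads zinc into milk in the mammary gland, stood at 10.8 in E12.5 ysE and at 0.123 to 0.652 in the other 10 libraries, which made it the one Slc30 gene above 10 in E12.5 ysE and below 1 elsewhere. Slc30a1, the exporter of the plasma membrane, was found at 27.8 in ysE at E12.5, 20.3 and 19.7 in ysE at E9.25, 7.97 and 9.84 in the mesoderm, 7.44 and 6.62 in the liver, and 4.98, 3.69, 8.61 and 15.3 in EBs. Here the ysE libraries were above all others, and the EB libraries spread widely, from below liver to above mesoderm.

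Slc30a4, Slc30a5 and Slc30a6 carry zinc into vesicles and the secretory pathway, the last pair as a heterodimer. Slc30a4 was at 0.728 and 0.806 in the liver and at 5.71 to 13.3 elsewhere, and Slc30a5 at 10.2 and 12.6 in the liver, 13.4 to 19.6 in EBs and 25.5 to 40.3 in the yolk sac libraries. Slc30a6 stood at 18.3 in ysE at E12.5, 22.0 and 25.2 in ysE at E9.25, 10.7 and 11.8 in the mesoderm, 1.43 and 1.85 in the liver, 4.04 and 3.69 in A9 EBs and 8.64 and 11.6 in JN EBs. The 4 lowest values were the 4 ScriptSeq libraries, and fits that take account of the protocol are given below. Slc30a7 ranged from 1.999 to 6.47 and Slc30a9 from 18.4 to 29.99. Slc30a3, the transporter of synaptic vesicles, did not pass 0.378, and Slc30a8, that of insulin granules, had at most 2 counts in a library and did not pass the filter on low counts.

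The metal importers Slc11a1 and Slc11a2 and the iron exporter Slc40a1 were all highest in E12.5 ysE. Slc11a1 (chr1:74375014-74386057), known from the phagosomes of macrophages, had an RPKM of 5.76 in ysE at E12.5, 0.447 and 0.596 in ysE at E9.25, 0.121 and 0.188 in the mesoderm, 0.583 and 1.05 in the liver, and 0.034, 0.102, 0.091 and 0.157 in EBs. Of 5 macrophage markers in the table, Csf1r was at 8.59 in E12.5 ysE while Lyz2 was at 0.132, Emr1 at 0.079 and Ptprc at 0.016. The 5 summed to 9.78, against 35.4 to 59.98 in the liver, 3.49 to 3.60 in ysE at E9.25 and 3.15 to 9.70 in EBs. Slc11a2 (DMT1), which takes ferrous iron up from the gut lumen and from endosomes, stood at 11.8 in ysE at E12.5, 9.33 and 9.49 in ysE at E9.25, 7.37 and 7.45 in the mesoderm, 5.29 and 6.71 in the liver and 3.11, 4.66, 3.82 and 4.28 in EBs. Slc40a1 (chr1:45908070-45926532) was found at 33.8 in ysE at E12.5, 28.8 and 33.3 in ysE at E9.25, 10.5 and 13.1 in the mesoderm, 21.2 and 22.0 in the liver, 11.9 and 12.6 in A9 EBs and 5.48 and 7.79 in JN EBs. For both genes the ysE libraries were above all others and at least 1 EB library was the lowest of the 11.

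Slc31a1 (CTR1), the copper importer of the plasma membrane, was highest in ysE, at 23.9 in E12.5 ysE and 17.98 and 19.8 in ysE at E9.25, with 17.2 and 15.3 in A9 EBs, 9.54 and 11.04 in JN EBs, 9.30 and 10.4 in the mesoderm and 6.04 and 6.13 in the liver. Slc31a2 ranged from 3.14 to 11.9. Of the magnesium carriers, Slc41a1, a sodium-coupled exporter, was highest in EBs (3.90, 2.68, 4.61 and 2.56) and lowest in ysE (0.478 to 0.723). Slc41a3 was highest in E12.5 ysE (3.57) and lowest in EBs (0.189 to 0.693), with no overlap between these groups. Slc41a2 did not exceed 1.21 in any library. Slc31a1 overlaps the protein-coding gene Fkbp15, Slc39a9 overlaps Erh, and Slc39a11 overlaps Sstr2 and Cog1. Slc11a2, Slc30a1, Slc30a4, Slc30a10, Slc39a8, Slc39a11 and Slc39a13 overlap long non-coding RNA genes, and Slc30a7 a pseudogene and a microRNA gene. Reads may be shared there, since it is not stated whether counting used strand. In the E12.5 ysE library, which was not strand-specific, strand could not separate them.

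**Figure D3:**
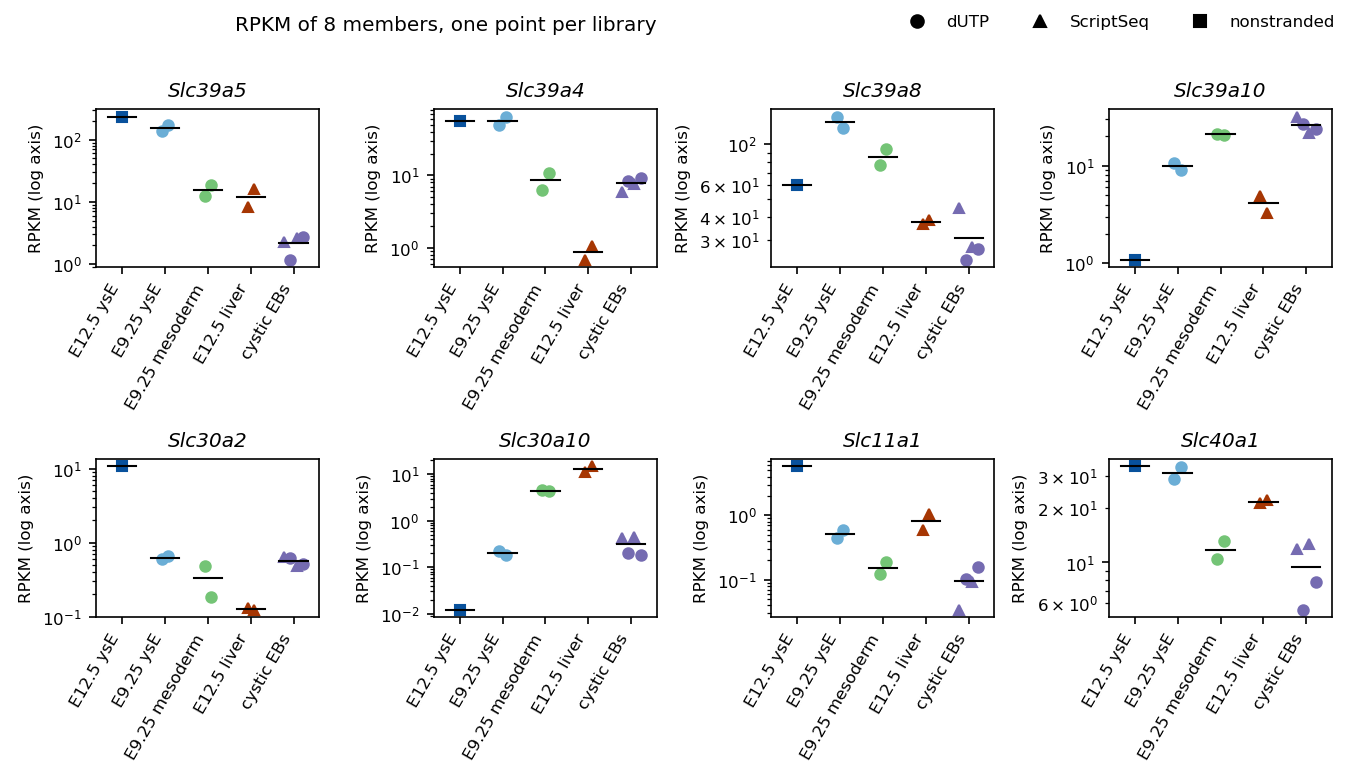
RPKM on a log axis of 8 members in the 5 tissues, with 1 point per library shaped by library protocol and a bar at the tissue mean. Slc39a5 and Slc39a4 are highest in ysE, Slc39a10 in EBs, Slc30a10 in the liver, and Slc30a2 and Slc11a1 in the single E12.5 ysE library.

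In total, 7 comparisons were tested on the counts of all transcripts, and a gene was called at a Benjamini-Hochberg adjusted p of 0.05 or less in edgeR's quasi-likelihood test. Several comparisons share libraries, so their results are not independent of each other, and the p-values measure only the spread between these samples. The 4 EB libraries are 2 clones sampled on 2 days, whose deviations were correlated (r = 0.638), and the test treats them as independent. With a single day, and so 1 library per clone, day 10 and day 15 EBs gave 24 and 19 members called against E9.25 ysE, 21 and 20 against E12.5 ysE and 17 and 18 against liver, beside the counts of 22, 21 and 17 with both days.

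Between the layers of the E9.25 yolk sac, the endoderm had far more Slc39a5 and Slc39a4 than the mesoderm and the mesoderm far more Slc30a10. Slc39a5 was 12.2-fold higher in ysE (log2 fold change 3.61 ± 0.48, SE, adjusted p = 0.000676) and Slc39a4 8.17-fold (3.03 ± 0.36, adjusted p = 0.000446). Slc11a1 (log2 fold change 2.06, adjusted p = 0.0266), Slc40a1 (1.72, adjusted p = 0.00866), Slc31a1 (1.25, adjusted p = 0.0107) and Slc30a2 (1.25, adjusted p = 0.0424) were also higher. Lower in ysE were Slc30a10 (log2 fold change -4.13 ± 0.51, adjusted p = 0.000489), Slc39a6 (-2.26 ± 0.33, adjusted p = 0.000971), Slc39a13, which releases zinc from the Golgi (-1.23, adjusted p = 0.0216), and Slc39a12 (adjusted p = 0.0201), which had 3 counts in the 2 ysE libraries and a 67.3-fold greater count share in mesoderm (95% counting interval 22.6 to 329.6).

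In all, 13 of 31 members tested were called (41.9%), 9 higher and 4 lower in ysE, where 30.6% of 24858 transcripts were called, 13.7% higher and 16.9% lower. The median log2 fold change was 0.41 over the members and -0.05 over all transcripts. By role, 8 of 14 Slc39 genes were called (5 higher, 3 lower), 2 of 9 Slc30 genes, 1 of 2 Slc11 genes, Slc40a1, 1 of 2 Slc31 genes and 0 of 3 Slc41 genes. Markers of endothelium, erythroid cells and mesenchyme (846 to 956 RPKM in mesoderm and 27.6 to 43.8 in ysE) moved with the mesodermal side. Those of visceral endoderm moved with the other, and the part of all these markers in the differences was not tested. Only the calls of Slc39a5, Slc39a4, Slc39a6 and Slc30a10 were kept whichever library was left out. Without any of the 4 yolk sac libraries of this stage the calls of Slc11a1 (adjusted p 0.0703 to 0.179), Slc39a11 (0.0997 to 0.127), Slc39a14 (0.0926 to 0.167) and Slc39a8 (0.0542 to 0.259, also without either liver library or day 15 A9) were lost. That of Slc30a2 was lost without ysE A or B, mesoderm B or 4 libraries of other groups (up to 0.224). Those of Slc39a13 (up to 0.144 without ysE A or either mesoderm library), Slc39a12 (up to 0.115 without either ysE library or mesoderm A), Slc31a1 (up to 0.0911 without ysE B or mesoderm A) and Slc40a1 (0.0802 without mesoderm A) were lost as well. In limma on log2(RPKM + 1), the calls of Slc30a2 (adjusted p = 0.114), Slc39a8 (0.168), Slc39a11 (0.148) and Slc39a14 (0.147) were lost.

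Set against E9.25 ysE, cystic EBs were lower in most of the transporters that changed. Slc39a5 was 95.8-fold lower in EBs (log2 fold change -6.58 ± 0.41, adjusted p = 1.58e-05), Slc39a4 9.99-fold lower (-3.32 ± 0.29, adjusted p = 4.33e-05) and Slc39a8 5.96-fold lower (-2.58 ± 0.27, adjusted p = 9.5e-05). Slc11a1 (log2 fold change -2.86, adjusted p = 0.00128), Slc30a6 (-2.22, adjusted p = 0.00153) and Slc40a1 (-2.16, adjusted p = 0.000534) were also lower. Higher in EBs were Slc39a6 (log2 fold change 1.94 ± 0.30, adjusted p = 0.00071), Slc41a1 (1.88 ± 0.35, adjusted p = 0.00199) and Slc39a10 (0.95 ± 0.24, adjusted p = 0.00911). With dUTP libraries only, which leaves the JN clone, Slc30a6 was lower by a log2 value of -1.58 (adjusted p = 0.000268, and -1.70 with adjusted p = 9.89e-05 with protocol as a term) and Slc40a1 by -2.59 (adjusted p = 8.25e-05).

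Of 31 members, 22 were called (71.0%), 3 higher and 19 lower in EBs, where 50.3% of all transcripts were called, 27.1% higher and 23.2% lower. The members' median log2 fold change was -0.79, and that of all transcripts 0.17. All 6 Slc30 genes called of 9 were lower, as were 8 of the 10 called of 14 Slc39 genes, both Slc11 genes, Slc40a1 and 1 of 2 Slc31 genes, and the Slc41 genes split with 1 higher and 1 lower. Visceral endoderm markers were lower in the same EB libraries (143 to 1252 against 9647 to 10566). So were hepatocyte markers, mostly Fgb (7.01 to 66.4 against 285 to 343), and erythroid markers (7.38 to 85.7 against 525 to 607). Pluripotency markers were higher in EBs (64.3 to 137 against 4.81 to 5.53). The part of these markers in the differences was not tested. Calls lost when 1 library was left out included those of Slc30a1 (without ysE A) and, without ysE B, of Slc39a3, Slc39a10 and Slc41a3. Also lost were those of Slc30a9, Slc31a1, Slc39a1 and Slc39a9 (without either ysE library), Slc30a7 (also without day 10 A9) and Slc39a14 (also without either A9 library). Without ysE A or B the E9.25 ysE group holds 1 library, so such a loss does not show that a call rested on the library left out. The other 12 calls were kept in every such fit. Slc39a10 was not called with day 15 EBs alone (adjusted p = 0.0534). In limma on log2(RPKM + 1) 16 members were called, and the calls of Slc30a7, Slc30a9, Slc31a1, Slc39a1, Slc39a3, Slc39a9 and Slc39a14 were lost (adjusted p 0.0765 to 0.707). The split over all transcripts was then 7372 higher and 3582 lower, against 6742 and 5758 in edgeR.

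**Figure D4:**
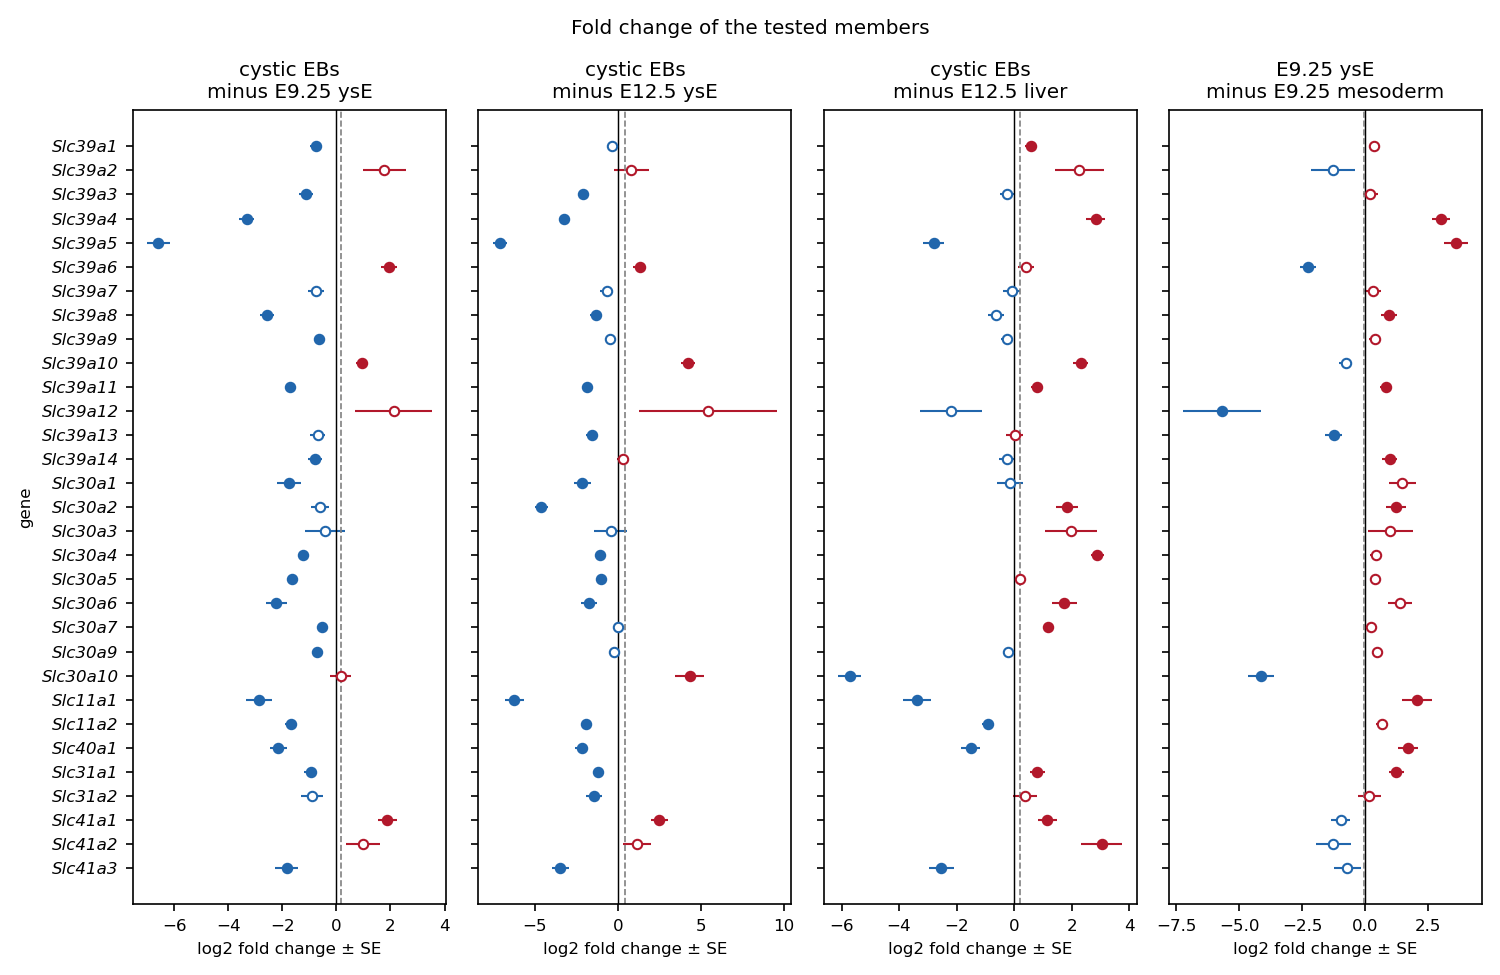
Log2 fold change ± SE (points and bars) of the 31 tested members in 4 comparisons, with filled points for genes called and a dashed line at the median of all transcripts. In the 2 panels of EBs against ysE, 19 and 17 members are called lower and 3 and 4 higher.

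Against the E12.5 ysE library the same direction prevailed. Slc39a5 was 138-fold lower in EBs (log2 fold change -7.11 ± 0.44, adjusted p = 1.67e-05), Slc11a1 75.5-fold (-6.24 ± 0.57, adjusted p = 6.77e-05) and Slc30a2 24.5-fold (-4.61 ± 0.38, adjusted p = 4.42e-05). They were followed by Slc41a3 (-3.48, adjusted p = 0.000679), Slc39a4 (-3.23, adjusted p = 0.000109) and Slc40a1 (-2.20, adjusted p = 0.00167). Slc39a10 was 18.6-fold higher in EBs (4.22 ± 0.40, adjusted p = 8.08e-05), with Slc41a1 (2.49, adjusted p = 0.00389) and Slc39a6 (1.31, adjusted p = 0.0238). Slc30a10 was higher too (adjusted p = 0.00363), with a count share 24.9-fold that of the 3 ysE counts (95% counting interval 8.49 to 121). In this comparison 21 members were called (67.7%), 4 higher and 17 lower, against 40% of all transcripts (21.1% higher, 18.8% lower). The median was -1.06 for members and 0.42 for all transcripts. Visceral endoderm markers (39469 in ysE and 143 to 1252 in EBs), hepatocyte markers (1745 and 7.01 to 66.4) and pluripotency markers (2.51 and 64.3 to 137) differed too, and their part in these differences was not tested. The called genes were 8 Slc39 (2 higher, 6 lower), 6 Slc30 (1 higher, 5 lower), both Slc11, Slc40a1, both Slc31 and 2 Slc41 genes (1 higher, 1 lower). With a single ysE library of a protocol that no other library shares, stage, protocol and library cannot be told apart, and the test assumes that it varies like the other groups. The call of Slc31a2 was lost without any of 9 other libraries (adjusted p 0.051 to 0.0581), and the other 20 were kept. In limma on log2(RPKM + 1) the calls of Slc30a10 (adjusted p = 0.191), Slc31a2 (0.0797), Slc30a5 (0.0632), Slc30a6 (0.0568) and Slc30a4 (0.0554) were lost. In a fit of only these groups those of Slc31a2 (0.125), Slc30a6 (0.0734), Slc31a1 (0.0656), Slc39a6 (0.0599), Slc39a8 (0.0557), Slc30a1 (0.0546) and Slc30a5 (0.0524) were lost.

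Fetal liver, which arises from definitive endoderm and at this stage is a blood-forming organ, had far more Slc30a10 than EBs and less Slc39a4, and Slc39a5 was low in both but higher in liver. Lower in EBs than in liver were Slc30a10 (52.6-fold, log2 fold change -5.72 ± 0.41, adjusted p = 1.56e-05), Slc11a1 (-3.38, adjusted p = 0.000642), Slc39a5 (6.94-fold, -2.79 ± 0.37, adjusted p = 0.000368), Slc41a3 (-2.53, adjusted p = 0.00156), Slc40a1 (-1.52, adjusted p = 0.00412) and Slc11a2 (-0.92, adjusted p = 0.00459). Higher in EBs were Slc41a2 (3.05, adjusted p = 0.0077), Slc30a4 (7.38-fold, 2.88 ± 0.23, adjusted p = 2.87e-05), Slc39a4 (7.11-fold, 2.83 ± 0.34, adjusted p = 0.000244), Slc39a10 (4.98-fold, 2.32 ± 0.26, adjusted p = 0.000157), Slc30a2 (1.83, adjusted p = 0.00457) and Slc30a6 (1.75, adjusted p = 0.0115, and 0.93 with adjusted p = 0.0439 within ScriptSeq libraries). Within ScriptSeq libraries Slc41a3 was at -3.21 (adjusted p = 0.0055) and Slc11a1 at -3.98 (adjusted p = 0.00886). The 17 members called (54.8%), 11 higher and 6 lower, stand beside 45.4% of all transcripts (24.6% higher, 20.9% lower), and the medians were both 0.20. The 4 hepatocyte markers summed to 508 to 1083 RPKM in the liver and 7.01 to 66.4 in EBs, and the erythroid markers to 391 to 562 and 7.38 to 85.7. Macrophage markers summed to 35.4 to 59.98 and 3.15 to 9.70, although Cd68 was higher in EBs (mean 3.64 against 2.06). Pluripotency markers summed to 0.01 to 0.07 in the liver and 64.3 to 137 in EBs. The part of these markers in the differences was not tested. The called members were 5 Slc39 genes (4 higher), 5 Slc30 genes (4 higher), both Slc11 genes, Slc40a1, 1 Slc31 gene and all 3 Slc41 genes (2 higher). Calls were lost without liver B for Slc11a2 (adjusted p = 0.0533), Slc41a1 (0.156) and Slc41a2 (0.0682), without either liver library for Slc30a6 (up to 0.0872) and Slc39a11 (up to 0.0686), and without any of 6 or 7 libraries for Slc31a1 (up to 0.143) and Slc39a1 (up to 0.317). In limma on log2(RPKM + 1) the call of Slc41a2 was lost (adjusted p = 0.0537), and within ScriptSeq libraries those of Slc39a1 (0.0972) and Slc39a11 (0.104) were lost.

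Between E12.5 ysE and E12.5 liver, most transporters that differed were higher in ysE. Among the genes higher in ysE the largest fold changes were those of Slc30a2 (87.2-fold, log2 fold change 6.45 ± 0.53, adjusted p = 4.77e-05), Slc39a4 (66.8-fold, 6.06 ± 0.44, adjusted p = 3.81e-05), Slc39a5 (19.9-fold, 4.32 ± 0.53, adjusted p = 0.000269), Slc30a4 (15.4-fold, 3.95 ± 0.27, adjusted p = 3.44e-05), Slc30a6 (11.4-fold, 3.51 ± 0.57, adjusted p = 0.00105) and Slc11a1 (7.26-fold, 2.86 ± 0.67, adjusted p = 0.00681). Lower in ysE were Slc30a10 (adjusted p = 0.0001, on the 3 counts given above), Slc39a10 (3.74-fold, -1.90 ± 0.36, adjusted p = 0.00229) and Slc41a1 (-1.34, adjusted p = 0.0473). In total 19 members were called (61.3%), 16 higher and 3 lower, against 46.3% of all transcripts (22.6% higher, 23.7% lower), with medians of 1.19 and -0.26. The higher calls took in 6 Slc39, 6 Slc30, both Slc11 and both Slc31 genes. The 2 groups differed in library protocol, which cannot be told apart from tissue here. Visceral endoderm markers summed to 39469 in this ysE library and 1510 to 2714 in the liver. Endothelial markers summed to 0.193 and 33.4 to 34.3, erythroid markers to 26.8 and 391 to 562, macrophage markers to 9.78 and 35.4 to 59.98 and mesenchyme markers to 18.4 and 65.9 to 98.0. The hepatocyte sum was 1745 in ysE and 508 to 1083 in the liver, with Fgb (1508 against 99.8 and 194) and Ahsg (152 against 46.9 and 115) higher in ysE, Alb lower (80.5 against 358 and 767) and Serpina1a between the liver libraries. Their part in these differences was not tested. Without liver A the call of Slc11a2 was lost (adjusted p = 0.073), without liver B that of Slc39a1 (0.101), without either those of Slc30a1 (up to 0.0975) and Slc31a2 (up to 0.0887), and without any of 6 libraries that of Slc41a1 (up to 0.164, and 0.156 in limma on log2(RPKM + 1)).

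From E9.25 to E12.5 in ysE, 4 transporters passed the test, and 14 did in a fit of only these groups, which called 10559 transcripts in place of 2106. Slc30a2 was 16.2-fold higher at E12.5 (log2 fold change 4.01 ± 0.48, adjusted p = 0.00261) and Slc11a1 10.4-fold higher (3.38 ± 0.67, adjusted p = 0.0181), while Slc39a10 was 9.67-fold lower (-3.27 ± 0.39, adjusted p = 0.00257). Slc30a10 was lower at E12.5 (adjusted p = 0.0217), its count share at E9.25 being 16.9-fold that of the 3 counts at E12.5 (95% counting interval 5.75 to 82.5). These 4 members (12.9%, 2 higher and 2 lower) stand beside 8.47% of all transcripts (3.90% higher, 4.57% lower), with medians of -0.06 and -0.21. Slc39a5, Slc39a4 and Slc39a8 were not called, at 235, 56.5 and 60.1 RPKM against means of 154 ± 24.1, 56.7 ± 11.1 and 133 ± 13.1 (SD, n = 2). The calls of Slc11a1 and Slc30a10 were lost without E9.25 ysE A or B (adjusted p up to 0.124 and 0.0819), and that of Slc30a10 also in limma on log2(RPKM + 1) (0.674). Stage and protocol change together in this comparison and cannot be told apart. Slc30a10 and Slc39a10, both higher in mesoderm than in ysE by RPKM, fell between the stages together with markers of endothelium (4.99 to 6.98 at E9.25 and 0.193 at E12.5) and of erythroid cells (525 to 607 and 26.8). Slc30a2 and Slc11a1 rose together with summed markers of visceral endoderm (9647 to 10566 and 39469) and hepatocytes (285 to 343 and 1745). The macrophage sum rose as well (3.49 to 3.60 and 9.78). Of the visceral endoderm markers Afp rose (6071 and 6628, and 35558), while Amn, Cubn, Dab2 and Apoc2 fell. Of the macrophage markers Csf1r rose (0.884 and 1.15, and 8.59), while Lyz2 (1.355 and 0.628, and 0.132) and Cd68 (1.197 and 1.566, and 0.966) fell. The part of these markers in the result was not tested. With size factors from relative log expression, the split of called transcripts turned from 969 higher and 1137 lower to 1240 higher and 876 lower, and the median of all transcripts moved from -0.21 to -0.04. In limma on log2(RPKM + 1) it was 1297 higher and 704 lower.

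Between day 10 and day 15 of EB differentiation, no member passed the test. Of 30 members and 22452 transcripts tested in the 4 EB libraries, 0 (0%) were called by edgeR, with 304 transcripts at an unadjusted p under 0.05. With the clone as a replicate block 2392 transcripts were under 0.05 and again 0 were called, and DESeq2 called 17 transcripts and 0 members. Slc30a1, for example, was at 4.98 and 3.69 at day 10 and 8.61 and 15.3 at day 15, without overlap. Both day 15 libraries were above both day 10 libraries for 6 of 32 members (Slc30a1, Slc30a7, Slc39a1, Slc39a5, Slc39a13 and Slc41a2, against 11.2% of all symbols) and below for 4 (Slc30a2, Slc30a3, Slc39a2 and Slc39a10, against 10.8%). Between clones, both A9 libraries were above both JN libraries for 9 members (Slc40a1, Slc31a1 and Slc39a8 among them), or 28.1%, against 23.5% of symbols. They were below for 10, or 31.2%, against 31.1% of symbols. The gene Slc40a1, for instance, stood at 11.9 and 12.6 in A9 and at 5.48 and 7.79 in JN.

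Genes that buffer zinc were followed from a list of 5. The metallothioneins Mt1 and Mt2, which bind zinc and copper in the cytosol and are induced by zinc through MTF1, were at 535 and 453 RPKM in E12.5 ysE. Mt1 stood at 84.5 and 102 in ysE at E9.25, 49.3 and 46.5 in the mesoderm, 7.54 and 20.6 in the liver, 22.2 and 15.0 in A9 EBs and 60.9 and 73.8 in JN EBs. The 4 ScriptSeq libraries were thus the lowest 4 for Mt1. Between E12.5 ysE and liver Mt1 was 39.2-fold higher in ysE (log2 fold change 5.29 ± 0.86, adjusted p = 0.00107) and Mt2 18.1-fold (4.18 ± 0.70, adjusted p = 0.00119). Against E12.5 ysE, EBs were lower in Mt1 (-4.02, adjusted p = 0.0013) and Mt2 (-3.79, adjusted p = 0.000668). Against E9.25 ysE Mt1 was lower in EBs (-1.59, adjusted p = 0.041), a call lost without either ysE, mesoderm or A9 library (up to 0.184). With library protocol as a term the value was -0.95 (adjusted p = 0.0511), and in limma on log2(RPKM + 1) the call was lost as well (0.113). Mt2 rose from E9.25 to E12.5 (2.91, adjusted p = 0.0309), lost without either ysE or mesoderm library (up to 0.162). Mtf1, the sensor itself, was at 1.86 to 4.02 RPKM in all 11 libraries and lower in EBs than in liver (-1.23, adjusted p = 0.000634), E9.25 ysE (-0.58, adjusted p = 0.0254, lost without either ysE or A9 library, up to 0.204) and E12.5 ysE (-0.68, adjusted p = 0.0417, lost without any of 9 libraries, up to 0.072). Both ysE calls of Mtf1 were lost in limma on log2(RPKM + 1), at -0.09 (adjusted p = 0.663) and -0.22 (0.41), and in fits of only the groups compared (0.0695 and 0.165), and that against E9.25 ysE also within dUTP libraries (-0.38, adjusted p = 0.111). Of the 5 genes, 2 were called lower and none higher in EBs against E9.25 ysE, 3 lower and 1 higher (Mt3) against E12.5 ysE, and 1 lower and 1 higher against liver. In ysE, 2 were higher at E12.5 than in liver, 1 was lower at E9.25 than in mesoderm (Mt3) and 1 was higher at E12.5 than at E9.25. Against E9.25 ysE the 2 calls were 40% of the list, below the 50.3% of all transcripts, and against E12.5 ysE the 4 calls were 80%, beside 40%. The 2 calls against liver, in EBs and in E12.5 ysE, were 40% each, beside 45.4% and 46.3%, and the single calls between ysE and mesoderm and between the ysE stages 20%, beside 30.6% and 8.47%. The Mt3 call between ysE and mesoderm was lost without either ysE library or mesoderm A (adjusted p up to 0.141), and that between EBs and E12.5 ysE in limma on log2(RPKM + 1) (0.0921).

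Of the copper list of 9 genes, EBs had 7 called lower and none higher against E9.25 ysE and 6 lower and none higher against E12.5 ysE. Against liver 4 were lower and 2 higher, and the shares called were 77.8%, 66.7% and 66.7%, beside 50.3%, 40% and 45.4% of all transcripts. Of the calls against E9.25 ysE, those of Sco1 (adjusted p = 0.0671 and 0.0589), Sco2 (0.0567 and 0.0865) and Commd1 (0.102 and 0.0681) were lost without ysE A or B and in limma on log2(RPKM + 1), and that of Ccs without ysE B (0.0783). Against liver, those of Ccs, Cutc and Sco2 were lost within ScriptSeq libraries (0.149, 0.13 and 0.0931), in a fit of only these groups and without either liver library. Atp7b, the copper ATPase that loads ceruloplasmin in liver, stood at 34.1 in ysE at E12.5, 25.8 and 29.5 in ysE at E9.25, 3.64 and 5.54 in the mesoderm, 4.30 and 6.32 in the liver and 2.44 to 3.12 in EBs. It was lower in EBs than in either ysE (log2 fold changes -3.73, adjusted p = 1.66e-05, and -3.94, adjusted p = 2.14e-05), higher in ysE than in mesoderm (2.90, adjusted p = 0.000287) and than in liver (2.72, adjusted p = 0.00026), and lower in EBs than in liver (-1.22, adjusted p = 0.00287). Atp7a, the copper ATPase that exports copper from most other cells, was lower in EBs than in E9.25 (-1.15, adjusted p = 0.00107) and E12.5 ysE (-2.15, adjusted p = 0.000136) and higher in E12.5 ysE than in liver (2.21, adjusted p = 0.000248). It was not called against mesoderm, between EBs and liver or between the ysE stages (adjusted p 0.0529 or more). Atox1, the chaperone that hands copper to both ATPases, was 34.1-fold higher in E12.5 ysE than in liver (5.09 ± 0.44, adjusted p = 5.56e-05) and lower in EBs than in E9.25 ysE (-2.16, adjusted p = 0.000331). Its 4 lowest values, in the liver (6.64 and 6.46) and A9 EBs (20.2 and 23.8), were those of the ScriptSeq libraries.

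Of the iron list of 16 genes, EBs had 11 called lower and 1 higher against E12.5 ysE, 6 lower and 2 higher against E9.25 ysE, and 6 lower and 2 higher against liver. The shares called were 75%, 50% and 50%, beside 40%, 50.3% and 45.4% of all transcripts. Against E12.5 ysE the calls of Tfr2 (adjusted p = 0.13 and 0.0723) and Fth1 (0.185 and 0.108) were lost in limma on log2(RPKM + 1) and in a fit of only these groups, and that of Slc25a37 in limma (0.0551). Against E9.25 ysE, Steap3 was lost in the same fits (0.638 and 0.103) and without ysE B (0.258), and Cp without ysE B (0.0846). Against liver, both higher calls, Ireb2 (0.0593) and Aco1 (0.0997), were lost within ScriptSeq libraries, and that of Fth1 in limma (0.0804) and without liver B (0.129). In E12.5 ysE, 8 were higher and 3 lower than in liver (68.8%, beside 46.3%), with Trf, Ftl1, Ireb2 and Tfr2 lost without a liver library (up to 0.149). For Ftl1 the ScriptSeq libraries were the lowest, at 24.9 and 45.6 RPKM in the liver and 46.2 and 52.6 in A9 EBs. JN EBs stood at 451 and 467 and E12.5 ysE at 405. Trf (transferrin) was at 8328 RPKM in E12.5 ysE, 993 and 1138 in ysE at E9.25, 88.2 and 160.0 in the mesoderm, 305 and 529.6 in the liver and 0.617 to 18.3 in EBs, a log2 fold change of -7.26 ± 1.07 between EBs and E9.25 ysE (adjusted p = 0.000557). Tfrc, the transferrin receptor, was the gene called higher in EBs against both ysE stages (1.67, adjusted p = 0.00138, and 1.96, adjusted p = 0.00416). It was lower in ysE than in mesoderm (-2.29, adjusted p = 0.000862) and than in liver (-3.22, adjusted p = 0.000502), and lower in EBs than in liver (-1.26, adjusted p = 0.00388, and 0.0561 without liver B). Steap4, an iron and copper reductase, was at 32.1 in E12.5 ysE and at 0.040 to 0.468 in the other 10 libraries (7.94 ± 1.02 against E9.25 ysE, adjusted p = 0.00337). Slc25a37, the mitochondrial iron importer of erythroid cells, was lower than in liver both in EBs (-5.93, adjusted p = 7.56e-07) and in E12.5 ysE (-4.63, adjusted p = 6.26e-05).

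Of the 10 magnesium genes, Trpm7, the widely expressed channel kinase, was at 11.5 to 25.6 RPKM and called in none of the 7 comparisons (adjusted p 0.141 or more). Its relative Trpm6, a channel of absorptive epithelia, stood at 7.25 and 6.32 in ysE at E9.25, 1.58 in ysE at E12.5, 0.676 and 1.14 in the mesoderm, 0.061 and 0.020 in the liver and 0.402 to 1.44 in EBs. It was lower in EBs than in E9.25 ysE (-3.29, adjusted p = 0.000707), higher than in liver (4.19, adjusted p = 0.00113) and higher in ysE than in mesoderm (3.22, adjusted p = 0.00507, and 0.055 without mesoderm A). The list held 4 genes lower and 2 higher in EBs against E9.25 ysE, 3 lower and 2 higher against E12.5 ysE, and 4 higher and 1 lower against liver. These shares of 60%, 50% and 50% were close to the 50.3%, 40% and 45.4% of all transcripts. Both higher calls against E9.25 ysE, Cnnm1 (adjusted p = 0.123 and 0.201) and Cnnm4 (0.0883 and 0.0582), were lost without ysE A or B, and that of Magt1 without ysE A (0.122).

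Trimethylation of histone H3 at lysine 4 (H3K4me3) marks the starts of active genes and was measured in 1 library of E12.5 FVB whole visceral yolk sac, both layers together, against input. A peak lay within 1000 bases of the outermost start of 20 of 26 members (76.9%) and of 45.4% of 27026 genes. Peak scores are those of MACS, -10 log10 of the p-value against input, and many sat at 3100, so that they rank strong peaks poorly. Slc39a5 had a peak of score 2617 spanning both of its starts, Slc39a8 one of 3100 and Slc30a2 one of 882. Slc30a10 and Slc41a2, both under 0.25 RPKM in ysE, had peaks of 93.5 and 117. In the other layer, the mesoderm at E9.25, Slc30a10 stood at 4.67 and 4.28 RPKM and Slc41a2 at 0.773 and 0.518. No peak lay at the outermost starts of Slc11a1, Slc39a12, Slc39a2, Slc41a3, Slc30a3 or Slc39a10. The inner start of Slc39a10 had a peak of 3100 and that of Slc30a3 one of 56.3.

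**Figure D5:**
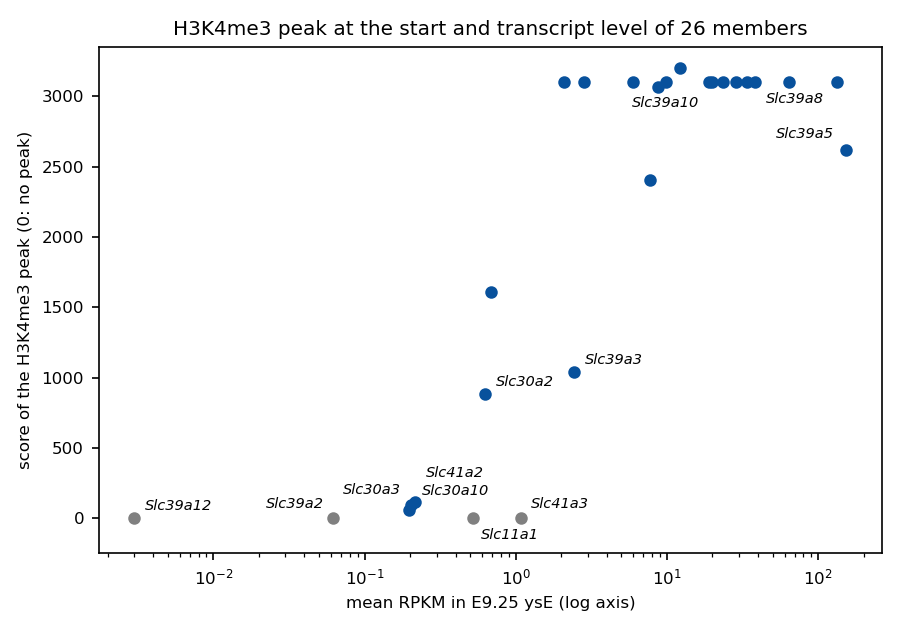
Score of the H3K4me3 peak within 1000 bases of a start (highest-scoring start of each gene, 0 where there is no peak) in E12.5 visceral yolk sac against the mean RPKM in E9.25 ysE (log axis), 1 point for each of 26 members. Members below 0.25 RPKM score 117 or less, and many above 2 RPKM sit at 3100. The peaks come from both layers of the yolk sac, the RPKM from the endoderm alone.

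DNA methylation was measured by bisulfite sequencing in 2 libraries each of E12.5 ysE, E12.5 liver and day 15 EBs, all from the reciprocal crosses CastxFVB (CxF) and FVBxCast (FxC). The EBs came from 1 ES clone of each cross, CF-C2 and FC-A2, which are not the clones of the RNA libraries, and the strains differ from those of the RNA libraries too. Coverage was thin, with at least 5 reads over the CpGs within 1000 bases of the outermost start in 14 to 20 of 26 members per library and in all 6 libraries for 5 members. No test is given, since 2 libraries against 2 cannot reach 0.05 in an exact permutation test, and intervals cover counting error only. A read was counted at each CpG it covered, so the reads given are not all separate molecules. The intervals treat them as independent and may be too narrow. At Slc39a8, whose upstream sequence is shown above, 0% of 11 and 0% of 10 reads were methylated in ysE (CxF and FxC), which, at 3 reads of the total, allows up to 27.3% and 30%, 0% of 20 and 33.3% of 6 in the liver, and 55% of 20 (95% Clopper-Pearson interval 31.5% to 76.9%) and 100% of 6 (54.1% to 100%) in EBs. Both EB libraries were above both ysE and both liver libraries there. At Slc39a5 the outermost start had 45.5% of 11 reads in ysE CxF (16.8% to 76.6%), 14.3% of 7 and 73.3% of 15 in the liver and 90.9% of 11 and 91.7% of 12 in EBs (58.7% to 99.8% and 61.5% to 99.8%), with ysE FxC under 5 reads. The reverse, liver above EBs, was seen at Slc39a1 and Slc39a11. Slc39a1 was at 83.3% of 6 and 66.7% of 24 in the liver and 31.8% of 22 and 28.6% of 7 in EBs. The outermost start of Slc39a11 was at 66.7% of 6 in liver FxC and 0% of 6 and 0% of 12 in EBs. At Slc11a1 the same measure was 94.1% and 75% in ysE, 68.4% and 73.7% in the liver and 64.3% and 83.3% in EBs, with the 3 tissues overlapping. Slc39a9 had 0% of 45 and 0% of 10 reads in ysE, 2.13% of 47 and 0% of 10 in livers, and 100% of 6 and 18.2% of 11 in EBs, so that both EB libraries were again above the other 4. The FxC value there was below the 30% that 0 of 10 reads allows. Slc30a6 was at 7.69% and 0%, 14.3% and 36.4%, and 0% and 25% in the same order, so that EBs were not above liver. Slc41a1 was at 62.5% and 20%, 6.67% and 19.05%, and 80% and 44.4%. The ranges of ysE and EBs overlapped there, although EBs, on 5 and 9 reads, were above ysE within each cross. Both EB libraries were above both liver libraries at Slc41a1. The members covered in all 6 libraries were Slc39a8, Slc11a1, Slc39a9, Slc30a6 and Slc41a1, without Slc39a5. The median over these 5 members was 3.85% ± 5.44 in ysE, 20% ± 18.9 in the liver and 54.4% ± 14.0 in EBs (SD, n = 2), beside 45.3%, 63.4% and 71.8% over the 5102 genes covered alike. Over the 14 to 20 members covered in each library the medians were 18.3% and 20% in ysE (CxF and FxC). They were 20% and 66.7% in the liver and 60% and 53.5% in EBs.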

How the data were processed

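Total RNA depleted of ribosomal RNA was sequenced in 11 libraries. The authors aligned reads to mm10 with GSNAP and deposited read counts and RPKM per RefSeq transcript, made with their own scripts and RSeQC. The use of strand and the handling of reads with several matches are not given in the sources used here. The authors also deposited methylation calls per CpG (percent and reads, BisSNP) and H3K4me3 peaks with the score of MACS 1.4.2.

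Counts of all 11 libraries were fitted together in 5 tissues, EB days pooled (edgeR 4.0.16 quasi-likelihood, filterByExpr, TMM factors 0.766 to 1.21, R 4.3.3), with Benjamini-Hochberg adjustment over all transcripts and a threshold of 5%. The days were compared in a fit of the 4 EB libraries. Scripts were tested on simulated data. Alternatives were DESeq2 1.42.0, limma 3.58.1 on log2(RPKM + 1) of the deposited RPKM, other filters, normalization, sample sets and thresholds, a protocol term, a replicate block and leaving out each library. Days 10 and 15 of a clone deviated together (r = 0.638) and are paired by clone. Other same-numbered samples were not (r -0.086 to 0.174).

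Each tissue sample was an entire pooled litter and each EB replicate another clone, and p-values measure only the spread between these samples. The members and lists were chosen with earlier results of these data known. Named were up to 6 called members per direction and comparison by fold change, and up to 2 per pathway list besides Mt1, Mt2, Mtf1, Tfrc, Atp7a, Atp7b and Trpm7. Methylation used CpGs within 1000 bases of a start with at least 5 reads in all, a read being counted at each CpG it covered. Counting intervals are exact at 95%, and depth limits genes of few counts.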

Additional observations from a re-analysis of the deposited data

Results flagged for a closer look

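In 1 of 32 groups of 4 EB libraries examined, 1 library stood apart from the other 3 by more than Dixon's critical value at 95%. Slc30a8, the zinc transporter of insulin granules, had an RPKM of 0.009 in the day 15 A9 library, from 1 count, and 0 in the other 3 EB libraries. Chance flags about 1 in 20 groups of continuous values. With the other 3 values at 0 any single count is flagged, so that rate does not apply here.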

How the results depend on the processing

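The number of members called was within 1.5 times the reported one, in each comparison, under DESeq2, RLE factors, no filter on low counts, 1 row per symbol, limma on log2(RPKM + 1), the protocol term and the protocol subsets, where these gave a value. At 1% in place of 5%, members called fell to 5 between the E9.25 layers and 2 between the ysE stages, and transcripts to 4315 (E9.25 layers, 7613 at 5%), 8097 (EBs and E9.25 ysE, 12500), 5794 (EBs and E12.5 ysE, 9932), 6793 (EBs and liver, 11297), 7463 (E12.5 ysE and liver, 11521) and 472 (ysE stages, 2106). Fitting only the groups compared gave 24 members and 13160 transcripts between the E9.25 layers, 14 and 10559 between the ysE stages, and 6344 transcripts for EBs and E12.5 ysE, and the cause was not tested. DESeq2 called 4018 transcripts between the ysE stages and 17 between EB days. Leaving out 1 library gave, in the order of the report, 5 to 16, 13 to 23, 20 to 21, 10 to 17, 15 to 20, 2 to 5 and 0 members, and 4021 to 8411, 7603 to 12845, 8754 to 10513, 6668 to 12055, 9043 to 12325, 349 to 2859 and 0 transcripts. The single E12.5 ysE library could not be left out of its own comparisons. With a replicate block, 14, 24 and 17 members were called between the E9.25 layers, EBs and E9.25 ysE, and EBs and liver, and 0 between EB days. Of the values of called members under an alternative, 1746 stayed past the threshold, 188 did not and 0 reversed; members that were called only under an alternative are not in this tally. With RLE factors the median of all transcripts for EBs against E9.25 ysE moved from 0.17 to 0.27. H3K4me3 peaks counted 20 within 500 bases, 19 overlapping a start and 18 when only peaks scoring above the median were kept. Stricter read minimums and a 500-base window left 0 of 26 starts covered in all 6 methylation libraries.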
